A study of Homo sapiens with 14 samples.

Results

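The 44 genes described here are replication and mitosis genes listed as bound by the DREAM complex, and they were taken by symbol from a table of 28159 windows of 1000 bp, 1 per gene, placed over transcription start sites. All 44 were in the table. They comprise 15 G1/S genes, which act in DNA replication and entry into S phase, and 29 G2/M genes, which act in mitosis. The Ser5-phosphorylated form of RNA polymerase II, which marks promoters early in transcription, was measured in HCT116 cells, a human colorectal carcinoma line with wild-type p53, by ChIP-seq with the antibody 3E8. DREAM binding itself was not measured.

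Every culture was electroporated and then kept for 3 h in 10 µM Nutlin3a, which frees p53 from MDM2, or in its solvent, 0.1% DMSO. Cells given a bivalent inhibitory peptide received it at 10 µM during electroporation and at 200 nM in the medium, and the other cells received water. ChIP libraries were 1 for Nutlin3a with peptide, 1 for DMSO with peptide, 2 for Nutlin3a without peptide and 2 for DMSO without peptide. Both ChIP libraries with peptide carry replicate number 2. There were 8 input libraries, 2 for each of these 4 conditions. Whether replicates were separate cultures is not stated, so each p-value reflects the spread between these libraries alone, which may be technical.

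DREAM joins the pocket proteins p130 or p107, E2F4 or E2F5 with a DP partner, and the MuvB core, and it represses cell cycle genes in quiescent and arrested cells. It reaches G1/S genes mainly through E2F sites and G2/M genes mainly through CHR elements, short motifs close to the start site. When p53 induces CDKN1A, the product p21 inhibits cyclin-dependent kinases, pocket proteins lose phosphate and DREAM assembles.

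Promoter sequences of 36 of the 44 genes were matched in RefSeq (GRCh38.p14), from 250 bases before to 50 after the start. The G1/S promoters of GINS2 and MCM6 and the G2/M promoters of CDC20 and PLK1 are printed because they hold the motif of their class and their genes recur in the results. Capitals mark matches on either strand to the E2F motif in the G1/S promoters and to the CHR element in the G2/M promoters. The E2F motif was searched as TTCCCGC, with the other spellings TTCGCGC, also TTGCCGC and finally TTGGCGC. The CHR element was searched as TTTGAA, with the other spelling TTTAAA. GINS2 lies at chr16:85688905-85689204 on the minus strand and MCM6 at chr2:135876394-135876693 on the minus strand. CDC20 lies at chr1:43358731-43359030 on the plus strand and PLK1 at chr16:23678639-23678938 on the plus strand.
GINS2: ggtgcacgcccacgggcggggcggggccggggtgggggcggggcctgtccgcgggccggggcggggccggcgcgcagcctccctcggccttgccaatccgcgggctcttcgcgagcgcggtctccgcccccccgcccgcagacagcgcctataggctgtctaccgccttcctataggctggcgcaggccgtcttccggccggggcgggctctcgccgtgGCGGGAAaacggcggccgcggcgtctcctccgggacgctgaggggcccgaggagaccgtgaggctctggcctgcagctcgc
MCM6: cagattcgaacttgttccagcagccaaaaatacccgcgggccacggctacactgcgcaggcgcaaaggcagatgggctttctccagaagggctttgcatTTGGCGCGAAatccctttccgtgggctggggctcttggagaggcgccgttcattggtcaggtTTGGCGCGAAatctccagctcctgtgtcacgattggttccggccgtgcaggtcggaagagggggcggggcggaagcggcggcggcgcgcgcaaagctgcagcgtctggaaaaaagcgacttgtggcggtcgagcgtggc
CDC20: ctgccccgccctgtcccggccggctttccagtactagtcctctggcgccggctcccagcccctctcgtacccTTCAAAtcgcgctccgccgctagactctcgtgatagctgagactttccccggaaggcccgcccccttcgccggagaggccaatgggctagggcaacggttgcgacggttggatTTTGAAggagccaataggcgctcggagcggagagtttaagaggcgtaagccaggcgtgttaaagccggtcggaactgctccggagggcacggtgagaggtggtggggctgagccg
PLK1: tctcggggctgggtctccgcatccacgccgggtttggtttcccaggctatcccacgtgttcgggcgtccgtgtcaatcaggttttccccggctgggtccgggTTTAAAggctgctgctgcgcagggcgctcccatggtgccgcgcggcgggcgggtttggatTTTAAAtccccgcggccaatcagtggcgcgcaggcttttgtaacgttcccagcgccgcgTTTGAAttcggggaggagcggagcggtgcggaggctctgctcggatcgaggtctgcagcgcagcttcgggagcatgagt
The 4 E2F matches of MCM6 are 2 overlapping pairs, each pair read once on either strand. PLK1 holds 3 CHR matches and CDC20 holds 2.

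Of the members with a sequence, 18 of 23 G2/M promoters (78.3%) held a CHR match, and 2 of 13 G1/S promoters (15.4%) did, against 24.3% of all 27305 promoters. The E2F motif was found in 10 of 13 G1/S promoters (76.9%) and in 6 of 23 G2/M promoters (26.1%), against 13.1% of all promoters. CCAAT, searched on both strands, was found in 76.9% of G1/S and 78.3% of G2/M promoters, against 35.7% of all promoters. CHR matches were the more frequent in G2/M and E2F matches in G1/S promoters, while CCAAT shares were close in both. A match is a description of the letters and not of binding.

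**Figure D1:**
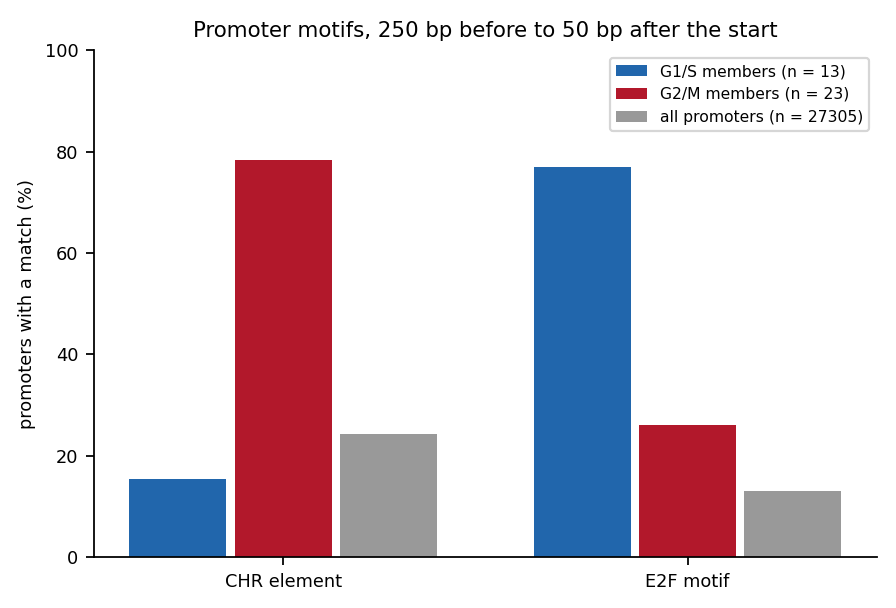
Share of promoters, in percent, with at least 1 match to the CHR element or the E2F motif among G1/S members (n = 13), G2/M members (n = 23) and all promoters (n = 27305). CHR matches stood in 78.3% of G2/M promoters and E2F matches in 76.9% of G1/S promoters.

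The ChIP libraries held 1290223 to 2240951 counts in the windows and the inputs 161719 to 359276. A member had 31 to 457 counts in a ChIP library and 0 to 43 in an input, so single input values are coarse. Levels are read counts scaled to a common library size (CPM), by TMM (trimmed mean of M values) in ChIP libraries and by total counts in inputs. CDKN1A, the p53 target used to check the Nutlin3a label, had 249 and 357 CPM in Nutlin3a and 107 and 125 CPM in DMSO, and 461 CPM in Nutlin3a with peptide against 115 CPM in DMSO with peptide; its window overlaps that of DINOL. All 3 Nutlin3a libraries were above all 3 DMSO libraries. The summed level of 10 colon epithelium markers was 995 to 1367 CPM in ChIP and 350 to 581 CPM in inputs. The summed level of 5 genes of other tissues (ALB, INS, MYH6, HBB and GCG) was 12.5 to 30.6 CPM in ChIP, highest in Nutlin3a replicate 1, and 18.3 to 69.7 CPM in inputs. For 5 mesenchyme markers it was 49.7 and 40.2 CPM in Nutlin3a and 17.4 and 32.5 CPM in DMSO, 34.8 CPM in Nutlin3a with peptide and 48.2 CPM in DMSO with peptide, against 61.0 to 156 CPM in inputs. For 5 blood markers it was 113 to 244 CPM in ChIP against 59.6 to 93.3 CPM in inputs, with 98.4 to 226 CPM in ChIP at CD68. No colon marker and at most 1 blood or mesenchyme marker was at 0 in a ChIP library. Nutlin3a replicate 1 stood apart from the other ChIP libraries: it had the fewest counts, and its levels correlated with theirs at 0.870 to 0.920 (Spearman, across windows, which are not independent), against 0.930 to 0.935 for DMSO replicate 1 with the replicate 2 libraries and 0.961 to 0.970 among the replicate 2 libraries.

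The ChIP level of Ser5-phosphorylated polymerase at the members, not corrected for input, was moderate. Mean ChIP level ran from 28.8 CPM at CENPE, a kinetochore motor, to 173 CPM at RRM2, a subunit of ribonucleotide reductase, with a median of 60.2 CPM. These levels stood at percentiles 57.1 to 98.1 of the 25901 windows tested. Input was high at the members too, with a median of 48.8 CPM, against 24.7 to 30.6 CPM over these windows in single inputs. The median ratio of mean ChIP to mean input at the members was 1.22, so the percentiles do not measure enrichment. The median was 55.2 CPM for G1/S and 65.3 CPM for G2/M members. The median G1/S level divided by the median G2/M level was 0.761 to 1.10 in the ChIP libraries, below 1 in 5 of 6. In the inputs it was 0.867 to 1.33, below 1 in 1 of 8. It was exactly 1 in the inputs of DMSO replicate 2 and of Nutlin3a with peptide replicate 2.

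Against input, 13 of 44 members were higher and 1 was lower at an adjusted p of 0.05 (edgeR quasi-likelihood test, Benjamini-Hochberg over all windows). Over all 21504 windows tested there, 16.7% were higher and 25.3% lower. The median log2 ratio of ChIP to input was 0.33 over the members, 0.26 for G1/S and 0.41 for G2/M, against -0.33 over all windows. Mean ChIP level was at least 2 times mean input at 7 members (15.9%), against 9.52% of all windows. These ratios rest on total counts and are relative to the other windows. Of the 13 called higher, 4 were G1/S and 9 were G2/M, and the windows of 6 of them overlap that of another gene.

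RRM2 had the highest ratio of ChIP to input among the members, 2.55 (adjusted p = 4.12e-05, edgeR). The ratios of single genes, here and in the next paragraph, are folds of the edgeR fit, which averages over groups. They differ from mean ChIP over mean input, of which the highest value at a member was 2.50. Its ChIP levels were 174 and 191 CPM in Nutlin3a and DMSO with peptide, 179 and 129.6 CPM in Nutlin3a, and 220.4 and 146 CPM in DMSO, against 37.3 to 109.8 CPM in inputs. Every ChIP library exceeded every input there. KIF11, the kinesin that pushes spindle poles apart, followed at 2.45 (adjusted p = 0.00262, edgeR), with 58.2 to 96.4 CPM in ChIP against 0 to 61.0 CPM in inputs. CDC25C, the phosphatase that activates CDK1, stood at 2.20 and shares its window with FAM53C. By mean ChIP over mean input, CDC25C ranked above KIF11. CDC20, an activator of the anaphase-promoting complex with its window at chr1:43358681-43359680, stood at 2.16 (adjusted p = 0.000317, edgeR). CDT1, which loads the MCM helicase, stood at 2.01 (adjusted p = 0.000525, edgeR), and all of its ChIP values, 103 to 168 CPM, were above its inputs, 55.7 to 88.6 CPM.

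Other members called higher were NUSAP1, a microtubule-binding protein (window shared with OIP5), FOXM1, a transcription factor of mitotic genes (with RHNO1), and KIF23, a kinesin of the midzone (with LOC145694). MELK, UBE2C, MCM4 (with PRKDC), MCM7 (with AP4M1) and CCNA2 were called higher too, at ratios of 1.57 to 1.72. GINS2, a subunit of the GINS complex of the replicative helicase, was the member called lower, at 0.606 (adjusted p = 0.023, edgeR). Its ChIP levels were 29.8 to 56.4 CPM and its inputs 42.7 to 117 CPM, and the ranges overlapped. Its window, chr16:85688655-85689654 (hg38), holds 700 bp of upstream sequence and 300 bp past the start. Counting higher and lower calls together, 14 of 44 members and 9034 of 21504 windows were called. In the ChIP-to-input test of DMSO libraries alone, 3 members and 3207 of 21504 windows were called. The number called also changed when single libraries were left out. The median log2 ratios were then 0.18 to 0.43 for G1/S, 0.26 to 0.50 for G2/M and -0.33 to -0.12 for all windows. With TMM in place of total counts, 20 members and 8747 of 21504 windows were called. The medians with TMM were 0.55 for G1/S, 0.70 for G2/M and -0.040 for all windows.

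**Figure D2:**
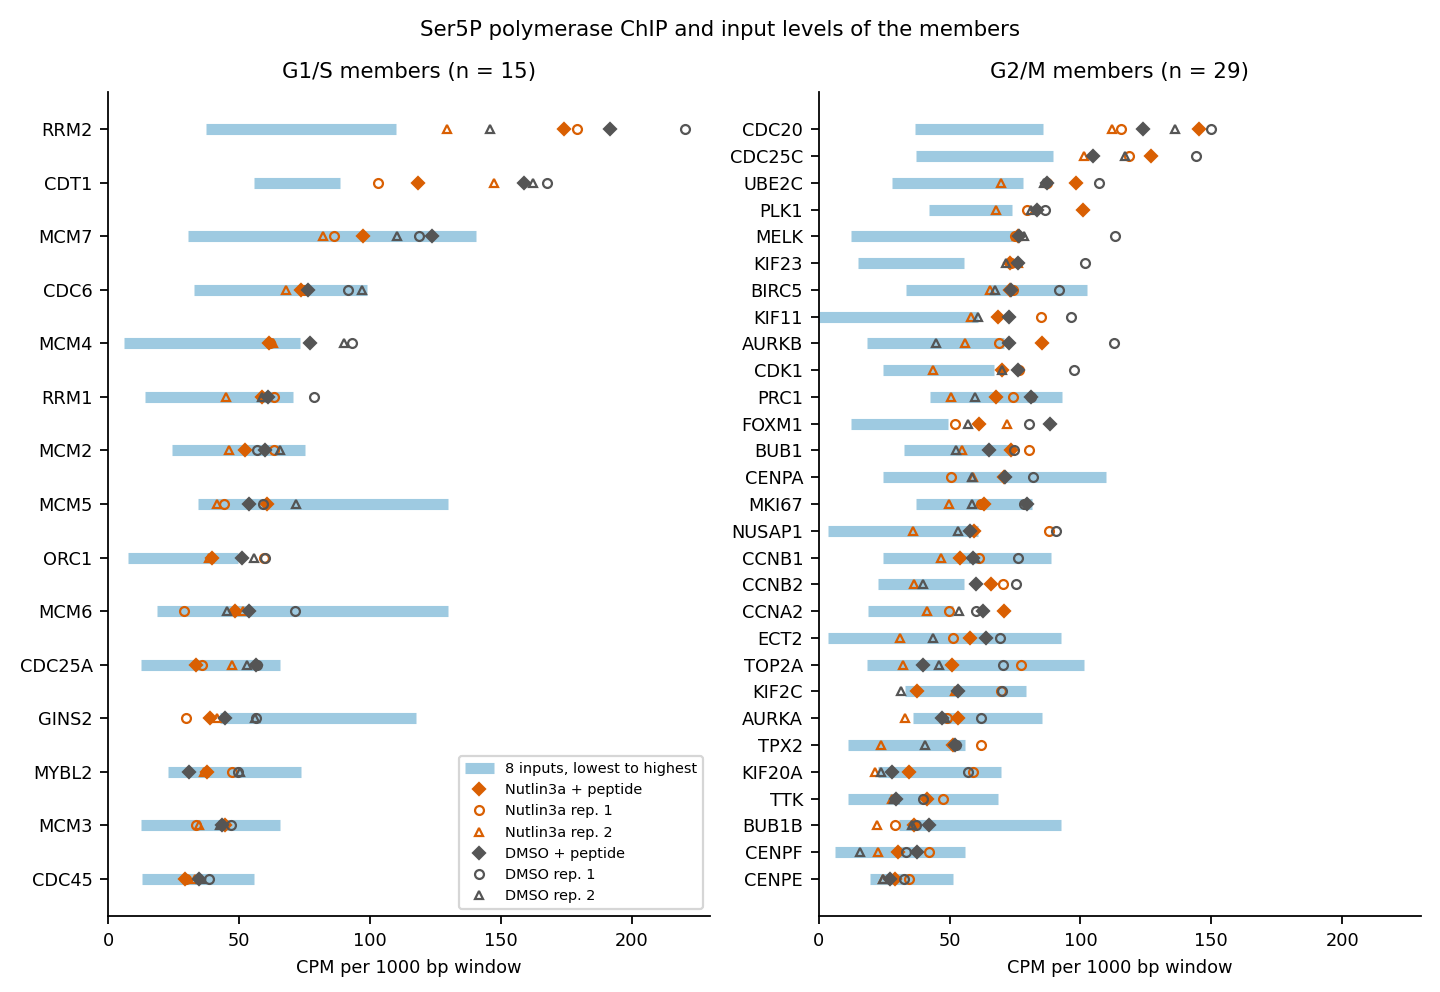
Ser5P polymerase level in CPM at each G1/S member (left, n = 15) and G2/M member (right, n = 29), 1 symbol per ChIP library, with blue bars from the lowest to the highest of the 8 inputs. At RRM2, CDT1, CDC20 and CDC25C every ChIP library lay above every input, and at GINS2 the ChIP symbols lay at the low end of the input bar or below it.

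In Nutlin3a against DMSO without peptide, none of the 44 members passed the test at an adjusted p of 0.05, with 0.00772% of all windows called higher and 0% lower (edgeR, Benjamini-Hochberg). The same held in DESeq2 and limma-voom. At an unadjusted p of 0.05, 3 members were lower, the MCM helicase subunits MCM4 and MCM5 and the GINS subunit GINS2, and 0 were higher, against 1.05% and 1.27% of all windows. The smallest adjusted p of a member was 0.982. The median 95% interval of a member, not adjusted for the number of windows, spanned 0.54 on the log2 scale to each side, or 1.46-fold. The width differed between members. A difference smaller than a member's own half-width could not be told from 0 there, and passing the adjusted threshold over all windows takes a larger difference still.

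The members lay low within the distribution of all windows. All 15 G1/S members had a TMM-scaled log2 fold change below 0, with a median of -0.39, and the G2/M members had a median of -0.21 with 24 of 29 below 0. Over all windows the median was 0.044 and 45.9% were below 0. Scaled by the authors' constants in place of TMM, the medians were 0.097 for G1/S, 0.28 for G2/M and 0.53 for all windows. Below 0 were then 4 of 15 and 0 of 29 members, against 1333 of 25901 windows. With all libraries, both classes thus lay below the median window under either scaling, and the sign itself rests on the scaling. For G2/M the position also rests on 1 library. Without DMSO replicate 1 the TMM-scaled G2/M median was 0.052, above the 0.021 over all windows. Against windows of more similar level the gap was smaller. When windows were limited to a mean count of at least 50 and refitted, the medians were -0.25 for G1/S, -0.0670 for G2/M and 0.0046 over those 11461 windows. Windows at or above 2 times input are chosen by ratio and not by level, and hold 7 of the 44 members. There the medians were -0.13 over 2 G1/S members, -0.00987 over 5 G2/M members and 0.056 over those 2467 windows. The members behind these medians thus changed along with the reference. Of the 5 mesenchyme markers, 4 had both Nutlin3a libraries above both DMSO libraries and 0 passed the test, and their part in the result was not tested. Both Nutlin3a libraries were below both DMSO libraries at 10 of 15 G1/S members (66.7%) and at 5 of 29 G2/M members (17.2%), against 15.7% of all windows and 31.7% of the 2467 windows at or above 2 times input. No member had both Nutlin3a libraries above both DMSO libraries, against 16.1% of all windows. The difference between the classes was not tested.

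Among MCM2 to MCM7, the subunits of the replicative helicase, the log2 fold change ran from -0.61 to -0.17. MCM5, with its window at chr22:35399840-35400839, had 44.3 and 41.4 CPM in Nutlin3a and 59.3 and 71.6 CPM in DMSO (log2 -0.61 ± 0.24, SE derived from the edgeR test). MCM4 had 61.9 and 63.0 CPM in Nutlin3a and 93.1 and 90.2 CPM in DMSO (-0.55 ± 0.21). At both genes the Nutlin3a and DMSO libraries were apart. MCM4 was called higher than input, while MCM5 was not, and the ratio of ChIP to input at MCM5 stood at percentile 51.4 of the tested windows.

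MCM7 had 86.4 and 82.2 CPM in Nutlin3a and 119 and 110.3 CPM in DMSO (-0.44 ± 0.22). MCM3 had 33.6 and 34.8 CPM in Nutlin3a and 46.8 and 42.8 CPM in DMSO (-0.39 ± 0.27). These libraries were also apart. At MCM6, Nutlin3a gave 29.1 and 51.6 CPM and DMSO 71.4 and 45.4 CPM, and at MCM2 Nutlin3a gave 63.5 and 46.2 CPM and DMSO 56.9 and 65.5 CPM. The groups overlapped at MCM6 and MCM2.

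For the other origin factors, GINS2 had 29.8 and 41.4 CPM in Nutlin3a and 56.4 and 56.2 CPM in DMSO (-0.65 ± 0.27), the lowest fold change of the 44. GINS2 was also the member called lower than input, as given above. CDT1 had 103 and 148 CPM in Nutlin3a and 168 and 162 CPM in DMSO (-0.39 ± 0.23). CDC45, part of the active helicase, had 29.8 and 33.0 CPM in Nutlin3a and 38.6 and 35.6 CPM in DMSO (-0.24 ± 0.29), in a window shared with UFD1. In each of the 3 the lower DMSO library exceeded the higher Nutlin3a library.

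CDC25A, a phosphatase that activates CDK2, had 35.9 and 47.4 CPM in Nutlin3a and 56.9 and 53.1 CPM in DMSO (-0.39 ± 0.26), without overlap. MYBL2, the transcription factor B-MYB, had 47.4 and 36.6 CPM in Nutlin3a and 49.7 and 50.5 CPM in DMSO (-0.26 ± 0.27), also without overlap. The ribonucleotide reductase genes overlapped. RRM1, its large subunit, had 63.5 and 45.0 CPM in Nutlin3a and 78.6 and 58.8 CPM in DMSO (-0.35 ± 0.25), and RRM2 had a log2 fold change of -0.25 ± 0.25.

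Libraries were apart at 5 of 29 G2/M members (17.2%), close to the 15.7% of all windows. Among these 5 was the spindle checkpoint kinase gene BUB1B, with 29.1 and 22.2 CPM in Nutlin3a and 37.1 and 35.6 CPM in DMSO (-0.51 ± 0.30). CDC20 had 115 and 112 CPM in Nutlin3a and 150.0 and 136 CPM in DMSO (-0.33 ± 0.22). CCNA2, cyclin A2, had 49.7 and 41.4 CPM in Nutlin3a and 60.3 and 53.6 CPM in DMSO (-0.33 ± 0.24). PLK1, the Polo kinase of mitotic entry, had 79.5 and 67.8 CPM in Nutlin3a and 86.3 and 80.9 CPM in DMSO (-0.19 ± 0.22).

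At other G2/M members the treatments overlapped. CDK1, the mitotic kinase, had 76.5 and 43.8 CPM in Nutlin3a and 97.4 and 70.1 CPM in DMSO (-0.49 ± 0.27). ECT2, the exchange factor of cytokinesis, had 51.2 and 31.2 CPM in Nutlin3a and 69.4 and 43.8 CPM in DMSO (-0.48 ± 0.30). In both genes replicate 1 exceeded replicate 2 in each treatment. UBE2C, the ubiquitin-conjugating enzyme of the anaphase-promoting complex, had 87.2 and 69.6 CPM in Nutlin3a and 107 and 86.1 CPM in DMSO (-0.31 ± 0.23). CDC25C had 119 and 101 CPM in Nutlin3a and 144 and 117 CPM in DMSO (-0.25 ± 0.22).

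The centromere and passenger genes showed no common direction. CENPA, the centromeric histone, had 50.5 and 58.8 CPM in Nutlin3a and 82.0 and 58.8 CPM in DMSO (-0.36 ± 0.24). BIRC5, survivin, had 74.2 and 65.4 CPM in Nutlin3a and 91.6 and 67.5 CPM in DMSO (-0.19 ± 0.23). CENPE had 34.4 and 24.6 CPM in Nutlin3a and 32.8 and 24.7 CPM in DMSO (0.03 ± 0.33). CENPF, a kinetochore protein, had 42.1 and 22.8 CPM in Nutlin3a and 33.3 and 16.0 CPM in DMSO (0.38 ± 0.39), the highest fold change of the 44. Each of the 4 overlapped between treatments.

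Among kinesins, KIF23 had 73.4 and 76.2 CPM in Nutlin3a and 102 and 71.6 CPM in DMSO (-0.21 ± 0.23). KIF20A, a kinesin of cytokinesis, had 58.9 and 21.6 CPM in Nutlin3a and 56.9 and 23.7 CPM in DMSO (-0.03 ± 0.43), in a window shared with BRD8. There the replicates differed far more than the treatments. TOP2A, the topoisomerase that untangles chromosomes, had 77.2 and 32.4 CPM in Nutlin3a and 70.4 and 45.9 CPM in DMSO (-0.11 ± 0.33). MKI67, the Ki-67 protein, had 61.9 and 49.8 CPM in Nutlin3a and 78.6 and 58.8 CPM in DMSO (-0.31 ± 0.24). FOXM1 had 52.0 and 72.0 CPM in Nutlin3a and 80.5 and 57.2 CPM in DMSO (-0.15 ± 0.25).

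**Figure D3:**
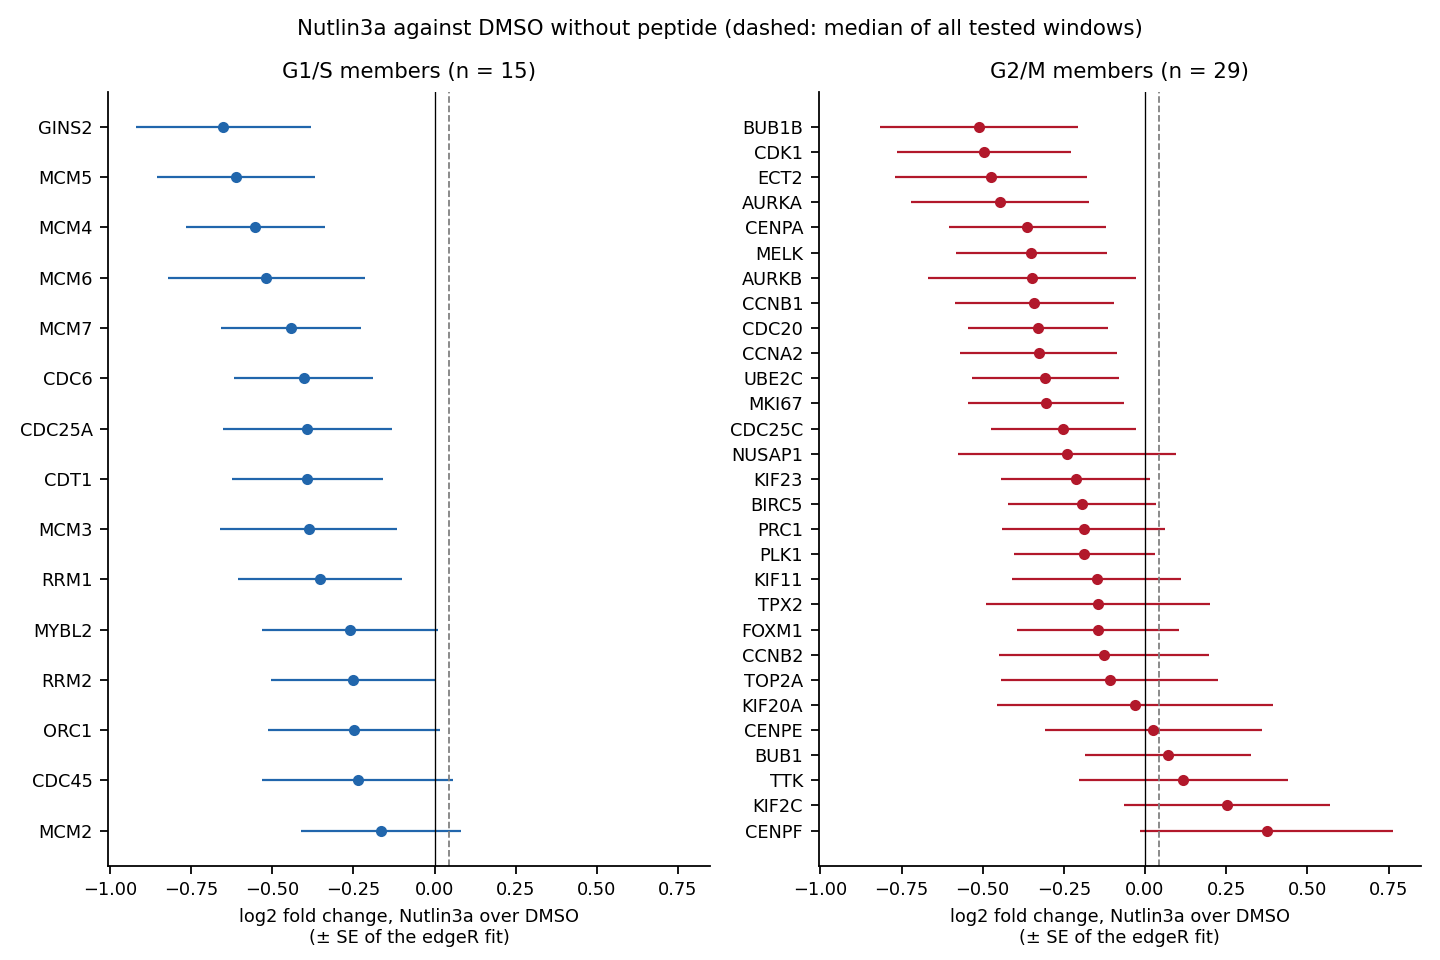
Log2 fold change of Nutlin3a over DMSO without peptide for each member, with bars of 1 SE derived from the edgeR test, for 15 G1/S members (left) and 29 G2/M members (right). The 15 G1/S points lie below 0 and below the dashed median of all windows at 0.044, while 5 G2/M points lie above 0; with the authors' constants the class medians are 0.097 and 0.28 and that of all windows 0.53.

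The G2/M median moved with single libraries. Leaving out Nutlin3a replicate 1, the library that stood apart, gave -0.46, leaving out DMSO replicate 1 gave 0.052, Nutlin3a replicate 2 gave -0.12 and DMSO replicate 2 gave -0.43. Without DMSO replicate 1 the median over all windows was 0.021. The G1/S median stayed between -0.46 and -0.32 over the same 4 omissions. Omitting Nutlin3a replicate 1 or 2 brought the windows called in the whole table to 32 or 39, omitting DMSO replicate 1 to 88 and omitting DMSO replicate 2 to 0, and 0 members were called in each.

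Replicates differed at the G2/M genes. In DMSO, replicate 1 was above replicate 2 at all 29 G2/M members, with a median log2 ratio of 0.47, and at 11 of 15 G1/S members (0.098), against 50.3% of all windows and a median of 0.0029. In Nutlin3a it was above at 25 of 29 G2/M members (0.41) and at 8 of 15 G1/S members (0.071), against 52.3% of all windows and a median of 0.035. In the inputs, summed by replicate, the G2/M median was -0.01 and replicate 1 was above at 14 of 29. The DMSO median was 0.15 over the 2467 windows whose ChIP level was 2 or more times input. With the authors' constants the G2/M medians were 1.33 in Nutlin3a and 0.71 in DMSO, beside 0.93 and 0.24 over all windows. In DMSO the replicates differed by more than the Nutlin3a change at 23 of 29 G2/M and 4 of 15 G1/S members. The first is a difference of single libraries and the second of means of 2, which vary less. The share over all windows was not computed, so these counts have no reference. The part of this difference in the Nutlin3a comparison was not tested beyond the omissions above.

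**Figure D4:**
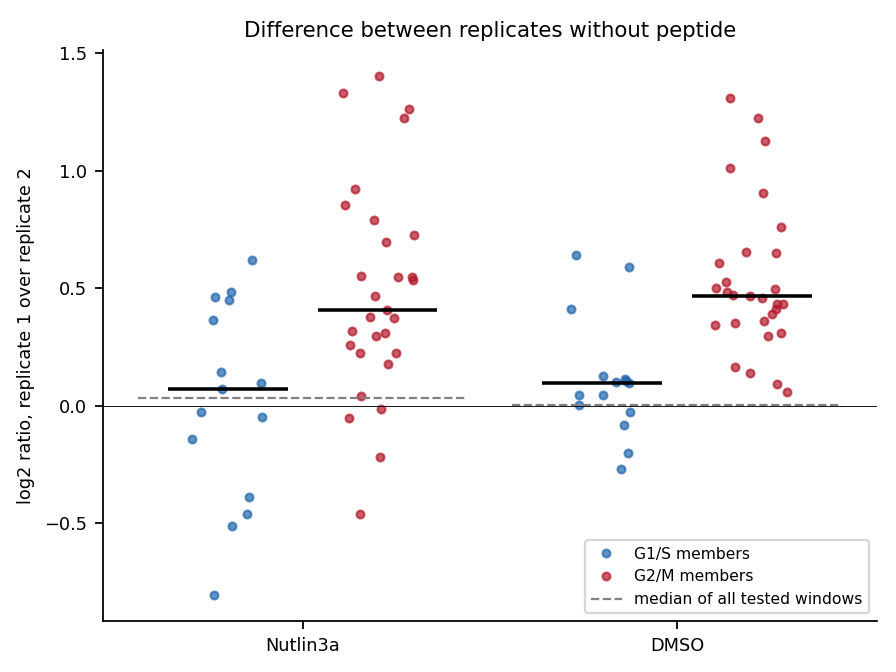
Log2 ratio of replicate 1 over replicate 2 at each member in Nutlin3a (left) and DMSO (right) without peptide, with black bars at class medians and dashes at the median of all windows. G2/M medians were 0.41 in Nutlin3a and 0.47 in DMSO, and G1/S medians 0.071 and 0.098.

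With peptide, each treatment had 1 library, so the Nutlin3a to DMSO ratio carries no test of its own. The median log2 ratio of Nutlin3a to DMSO was -0.20 for G1/S, with 12 of 15 below 0, and -0.0039 for G2/M members, with 15 of 29 below 0, while 49.2% of all windows were above 0. It was -0.41 and -0.28 in replicate 1 without peptide and -0.42 and -0.20 in replicate 2 without peptide, G1/S then G2/M. With the authors' constants the medians with peptide were 0.21 and 0.40, beside 0.38 over all windows. Past 1.5-fold there was 1 member lower, CDC25A, with 33.5 CPM in Nutlin3a with peptide and 56.6 CPM in DMSO with peptide, against 11.4% of all windows, and 0 members higher, against 10% of all windows.

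**Figure D5:**
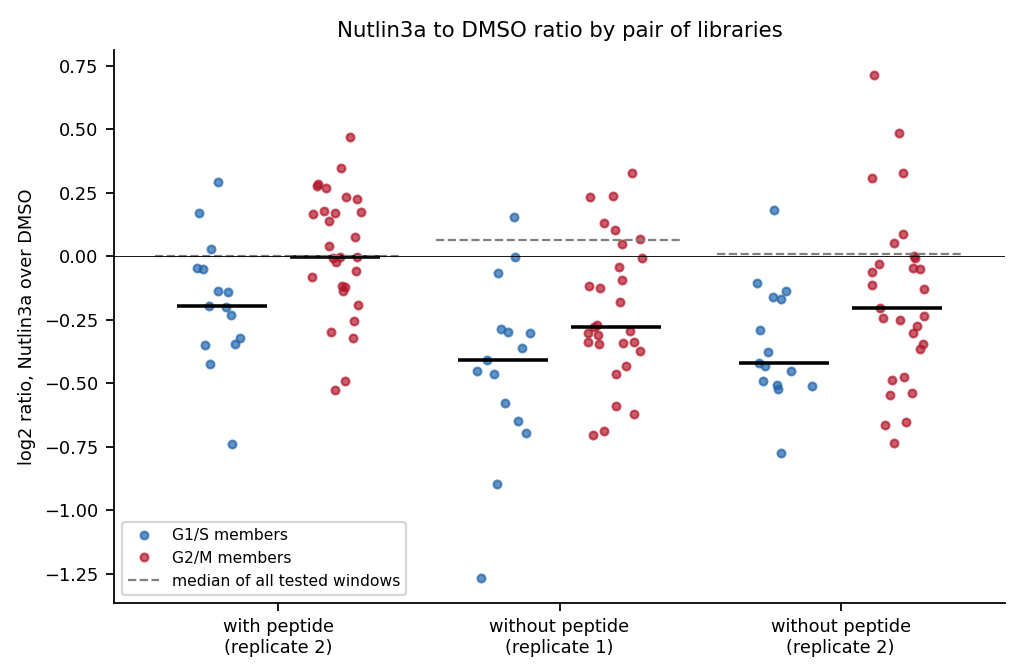
Log2 ratio of Nutlin3a over DMSO by pair of libraries, with peptide and without peptide in replicates 1 and 2, for G1/S and G2/M members, with black bars at class medians and dashes at the median of all windows. G1/S medians were -0.20, -0.41 and -0.42 and G2/M medians -0.0039, -0.28 and -0.20; these values are TMM-scaled, and with the authors' constants the medians with peptide are 0.21 and 0.40.

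Whether the peptide changed the Nutlin3a response was tested as the response with peptide minus that without. It passed at 0 of 44 members and at 0% of all windows (edgeR, adjusted p of 0.05), and 0 members had an unadjusted p under 0.05, against 0.413% of windows higher and 0.641% lower. DESeq2 and limma-voom also called 0 members. All 44 of the 95% intervals held 0, and their median reached 0.93 on the log2 scale to each side. The median difference was 0.22 for G1/S, positive at 10 of 15, and 0.31 for G2/M, positive at 24 of 29, against -0.012 over all windows, of which 49.1% were positive. Leaving out Nutlin3a replicate 2 gave a G2/M median of -0.000886, leaving out DMSO replicate 1 gave -0.050, and leaving out either of the other libraries without peptide gave 0.57. The intervals therefore allow differences in either direction.

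MCM5 had the smallest unadjusted p of that difference. It had 60.7 CPM in Nutlin3a with peptide and 53.8 CPM in DMSO with peptide, beside the lower Nutlin3a values without peptide given above, and its difference was 0.79 with an interval from -0.08 to 1.65. CDC20 had 145 CPM in Nutlin3a with peptide and 124 CPM in DMSO with peptide (0.56, from -0.22 to 1.35). CDC25A went the other way, at -0.36 (from -1.31 to 0.58).

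Peptide against none was compared within each treatment, and both comparisons use the libraries without peptide that also enter the Nutlin3a comparison. In Nutlin3a, 0 of 44 members and 0% of all windows were called (edgeR), with a median log2 difference of 0.13 (-0.28 with the authors' constants, beside -0.33 over all windows), and 1 member was higher at an unadjusted p of 0.05, against 0.564% of all windows higher and 1.88% lower. That member was CCNA2, with 70.9 CPM with peptide and 49.7 and 41.4 CPM without (0.64, interval 0.05 to 1.24). PLK1 had 101 CPM with peptide and 79.5 and 67.8 CPM without (0.46, from -0.09 to 1.00). At both genes the peptide library was above both libraries without it.

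In DMSO, 0 of 44 members and 0% of all windows were called (edgeR), 0 had an unadjusted p under 0.05 (0.687% of all windows higher and 0.83% lower), and the median was -0.12 (-0.37 with the authors' constants, beside -0.25 over all windows). MYBL2 had 30.8 CPM with peptide and 49.7 and 50.5 CPM without (-0.70, from -1.43 to 0.02). CENPF had 37.5 CPM with peptide and 33.3 and 16.0 CPM without (0.60, from -0.37 to 1.57). The peptide library was lower than both others at MYBL2 and higher than both at CENPF.

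Because the peptide libraries carry replicate number 2, they were also set beside replicate 2 alone, as values with no test. Peptide was higher than none at 26 of 29 G2/M members in Nutlin3a (median log2 ratio 0.42) and at 23 of 29 in DMSO (0.22), against 48.6% and 50.4% of all windows. The G1/S medians were 0.050 in Nutlin3a and -0.034 in DMSO. Replicate 2 without peptide was the lower replicate at most G2/M members, as given above, and with 1 peptide library per treatment a peptide difference and a low replicate 2 cannot be told apart.

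Larger lists of cell cycle genes that are not among the 44 were treated the same way. They were read from the same libraries and chosen with earlier results of these data known, so they are not an independent check. Of 40 other G1/S genes, 37 were below 0 in Nutlin3a against DMSO, with a median of -0.28, and of 40 other G2/M genes 29 were, with a median of -0.19. The share below 0 over all windows was 45.9%. With the authors' constants these medians were 0.25 and 0.39, beside 0.53 over all windows. None passed the adjusted threshold (edgeR), and 4 and 1 were lower at an unadjusted p of 0.05, against 1.05% of all windows. MCM10, a replication initiation factor, had 22.2 and 27.0 CPM in Nutlin3a and 54.0 and 40.7 CPM in DMSO (-0.94 ± 0.31). CLSPN, claspin of the replication checkpoint, had 35.2 and 43.2 CPM in Nutlin3a and 60.8 and 79.4 CPM in DMSO (-0.83 ± 0.25). The libraries were apart at both, which were named for the smallest p of their list. Both Nutlin3a libraries were below both DMSO libraries at 23 of 40 other G1/S genes (57.5%). The same held at 5 of 40 other G2/M genes (12.5%), against 15.7% of all windows.

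Of the other G2/M genes, TACC3, a spindle protein whose window overlaps that of TMEM129, had 63.5 and 49.8 CPM in Nutlin3a and 85.3 and 80.4 CPM in DMSO (-0.56 ± 0.23). LMNB1, lamin B1, overlapping LMNB1-DT, had 94.0 and 81.6 CPM in Nutlin3a and 135 and 106 CPM in DMSO (-0.46 ± 0.23). In DMSO, replicate 1 was above replicate 2 at 40 of 40 other G2/M genes (0.59) and at 30 of 40 other G1/S genes (0.15). It was above at 50.3% of all windows.

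Of the 11 genes for DREAM subunits, 6 were below 0 in Nutlin3a against DMSO, against 45.9% of all windows. Their median was -0.011 (0.058 with total counts and 0.46 with the authors' constants). TFDP1, the DP1 partner of E2F, had 56.6 and 71.4 CPM in Nutlin3a and 81.5 and 109.8 CPM in DMSO (-0.57 ± 0.23). RBBP4, a MuvB subunit whose window overlaps that of ZBTB8OS, had 68.0 and 58.2 CPM in Nutlin3a and 74.3 and 83.5 CPM in DMSO (-0.32 ± 0.22). None of the 11 passed the adjusted threshold (edgeR), and 1 was lower at an unadjusted p of 0.05, against 1.05% of all windows.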

How the data were processed

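ChIP-seq with an antibody to Ser5-phosphorylated RNA polymerase II and matching inputs were analysed in HCT116 cells, 6 ChIP and 8 input libraries. The table of read counts in 28159 windows of 1000 bp, 1 per gene, was used as deposited; the build is hg38 per the submitters' processing notes, and the aligner and counter are not given in the sources used here. The same file holds a scaled signal, which per the file headers carries an applied ratio and equals the authors' counts times 1 constant per library; how the constants were derived is not given in the sources used here. No column of per-sample values was left unmapped.

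ChIP counts were fitted in edgeR 4.0.16 (R 4.3.3) with TMM scaling, windows kept by filterByExpr at a minimum count of 10 (25901 windows, all 44 members among them), and a quasi-likelihood test on 4 group means over the 6 ChIP libraries, with p-values adjusted by Benjamini-Hochberg over all windows. This left 2 residual degrees of freedom, helped by 14.7 prior ones, and a biological coefficient of variation of 26.0%; each lone peptide library is assumed to vary like the others. ChIP was set against input over all 14 libraries with total-count scaling (21504 windows). Ratios of single libraries added a prior count of 2. Alternatives were DESeq2 1.42.0, limma-voom (limma 3.58.1), other scalings and filters, a replicate block and single libraries left out.

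The members and lists were chosen with earlier results of these data known. Members were named by rule: in each role the highest, the lowest and the smallest p for Nutlin3a against DMSO, all of MCM2 to MCM7, those past the threshold in a comparison of ChIP groups, and the 2 smallest p in each peptide comparison; from the other lists the 2 smallest p for Nutlin3a. CDKN1A checks the treatment. Members called against input, and genes sharing a window with a named member, were named after their values were seen. Windows of 10 members overlap that of another gene, so their counts cannot be split. The promoter table had no entry for AURKA, BIRC5, FOXM1, MCM4, MCM5, TPX2, TTK or UBE2C.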

Additional observations from a re-analysis of the deposited data

How the results depend on the processing

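Depth limits single members: the inputs hold at most 43 counts at a member. No member was called in any of the comparisons between ChIP groups under any alternative; of 1462 values of named members there, 0 passed the threshold and 1308 kept their sign. The cause of the shifts below was not tested.

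For Nutlin3a against DMSO, the number of windows called (2 in the fit described) was 8 with total counts, 8 in DESeq2, 4 in limma-voom, 4 without overlapping windows, and 0 with the authors' constants, at a mean count of at least 50, with ChIP at least 2 times input and in the 4 libraries without peptide; leaving out single libraries gave 0 to 88. The medians of G1/S and G2/M members were -0.32 and -0.14 with total counts, 0.097 and 0.28 with the authors' constants, -0.25 and -0.0670 at a mean count of at least 50, and -0.13 and -0.00987 with ChIP at least 2 times input, a set of 2 and 5 members whose scaling was refitted. Leaving out single libraries gave -0.46 to -0.32 for G1/S and -0.46 to 0.052 for G2/M.

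For the response with peptide minus that without, the G1/S and G2/M medians were 0.15 and 0.23 with total counts, 0.14 and 0.087 with the authors' constants, 0.065 and 0.13 at a mean count of at least 50, -0.17 and 0.039 with ChIP at least 2 times input, and 0.39 and 0.35 without overlapping windows. Leaving out single libraries gave 0.063 to 0.31 for G1/S, -0.050 to 0.57 for G2/M and 0 to 34 windows called. For peptide against none, windows called were 55 in Nutlin3a with the authors' constants and 1 without overlapping windows, and, with single libraries left out, 2 to 139 in Nutlin3a and 0 to 53 in DMSO. The ratio of Nutlin3a to DMSO with peptide had medians of 0.21 and 0.40 with the authors' constants.

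Replicate numbers are not stated to mark a shared day or culture, and 2 pairs are too few to settle it; deviations of same-numbered Nutlin3a and DMSO libraries correlated at 0.454 (Pearson, across windows, which are not independent). With a replicate block, windows called were 39 for Nutlin3a against DMSO, 5 for the difference in response, 4 for peptide in DMSO and 1 for peptide in Nutlin3a, with 0 members in each; the block fit's medians for Nutlin3a were -0.40 for G1/S and -0.20 for G2/M.

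For ChIP against input, TMM gave medians of 0.55 for G1/S and 0.70 for G2/M and 20 members called, against 14 with total counts. In DMSO alone, 3207 windows and 3 members were called and the G1/S median was 0.60. Leaving out single libraries gave 8 to 18 members called.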

Other observations

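The windows are placed without regard to strand. Of 8043 plus-strand genes whose RefSeq start lies inside the window, 6488 have 300 bp of upstream sequence in it, and of 7707 minus-strand genes 6365 have 700 bp. Among the members with a matched start, 14 of 22 on the plus strand hold 300 bp upstream, and 12 of 14 on the minus strand hold 700 bp. The median log2 ratio of ChIP to input was 0.24 at minus-strand members and 0.37 at plus-strand members, and -0.14 at both minus-strand and plus-strand windows overall. The median log2 fold change of Nutlin3a over DMSO was -0.32 at minus-strand members and -0.26 at plus-strand members, so members of both strands lay on the same side of the median window; with the authors' constants these were not recomputed by strand.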
